A study of Mus musculus with 8 samples.

Results

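Complement components and receptors were followed through RNA sequencing of mouse tissue labelled dorsal root ganglia, the clusters of sensory neuron cell bodies beside the spinal cord. The 9 genes, C1qa, C1qb, C1qc, C3, C4b, Cfb, Serping1, C3ar1 and C5ar1, were taken by gene symbol from a table of 18560 genes. Earlier results of these data were known when they were chosen. All 9 had an entry and all 9 passed the filter on low counts that left 15098 genes for testing. The groups were 4 libraries with the genotype label WT_P60 and 4 with the label cKO_P60, a conditional knockout of the mRNA export adaptor Alyref. The labels give no strain, sex, treatment or promoter driving the deletion, and no cell type in which it took place. They do not say whether a library came from 1 animal or several, so p-values measure the spread between these samples.

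Complement is a cascade of blood and tissue proteins that marks targets for removal. In the classical pathway C1q binds a surface and activates the proteases C1r and C1s, which cleave C4 and C2. The resulting enzyme cleaves C3, factor B amplifies this step in the alternative pathway, and the inhibitor encoded by Serping1 blocks C1r and C1s. The fragments C3a and C5a signal through the receptors encoded by C3ar1 and C5ar1. In nervous tissue C1q comes mainly from microglia and macrophages, and C1q and C3 are known for tagging synapses and debris for phagocytes.

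The 3 C1q chains are encoded side by side on mouse chromosome 4 within 18719 bases of GRCm38, all on the minus strand. C1qb spans 136880126 to 136886200, C1qc 136889801 to 136892936 and C1qa 136895916 to 136898844. The 250 bases before the start sites of C1qb and C1qc are shown because these are the neighbours in the cluster with a promoter entry, 5′ to 3′ from RefSeq (GRCm38.p6). C1qb lies at chr4:136886201-136886450 and C1qc at chr4:136892915-136893164, both on the minus strand. The C1qc stretch overlaps the gene span above from 136892915 to 136892936, so its start site lies inside that span. Capitals mark GAGGAA, or its reverse complement, the core of sites bound by PU.1, a transcription factor of myeloid cells.
C1qb: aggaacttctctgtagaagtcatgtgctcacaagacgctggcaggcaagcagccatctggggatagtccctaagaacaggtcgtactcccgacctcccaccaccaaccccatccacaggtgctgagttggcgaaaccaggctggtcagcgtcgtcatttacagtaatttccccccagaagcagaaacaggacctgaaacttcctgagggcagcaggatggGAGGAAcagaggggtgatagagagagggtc
C1qc: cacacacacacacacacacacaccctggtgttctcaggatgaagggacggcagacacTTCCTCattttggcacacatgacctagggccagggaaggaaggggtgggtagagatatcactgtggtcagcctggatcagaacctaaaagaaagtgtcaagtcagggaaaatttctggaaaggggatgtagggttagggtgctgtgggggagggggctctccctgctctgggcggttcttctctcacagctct

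Each of these promoters held GAGGAA 1 time when both strands were searched. Its first base lay at position −30 from the start of C1qb and at −193 from that of C1qc, where it lay on the opposite strand. The motif was present in 23.3% of the 32851 promoters in the table, and the longer form GAGGAAGT, which contains it, in 2.44%, with C1qc among them. Of the 5 member promoters in the table, those of C3, C3ar1 and C5ar1 did not hold GAGGAA. The interferon-stimulated response element, searched as GAAA, any 2 bases and GAAA, was present in 2.98% of all promoters. It was found in none of the 5 member promoters in the table, those of C1qb, C1qc, C3, C3ar1 and C5ar1. C1qa, C4b, Cfb and Serping1 had no entry.

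Total estimated counts were 15522915 to 16482614 per library. Alyref itself was at 20.9, 25.7, 19.4 and 22.2 CPM (counts scaled to a common library size) in WT and at 21.65, 19.4, 20.1 and 20.7 CPM in cKO, so its mRNA was not lower in cKO beyond the spread (log2 fold change −0.11 ± 0.097 SE, adjusted p = 0.887, edgeR). Directions below therefore refer to libraries by their labels. WT replicate 2 stood apart, with Spearman correlations to the others of 0.944 to 0.967 against 0.990 to 0.996 among the other 7. Its summed TPM (a level per transcript length, scaled to a fixed sum per library) was 4133 over 11 sensory neuron markers against 351.8 to 1330 elsewhere. Over 10 spinal cord neuron markers it was 360.8 against 680.8 to 789.7, so all libraries held central nervous system transcripts despite the ganglion label. Differences of the members are given with and without this library. In bulk tissue, fewer cells of a type and less RNA per cell cannot be told apart.

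In level per transcript length the C1q chains led the members. Mean TPM over the 8 libraries was 121.4 ± 8.42 (SD) for C1qb, 103.7 ± 8.82 for C1qa and 100.4 ± 12.1 for C1qc. Serping1 followed at 84.3 ± 60.01 TPM, then C3 at 25.4 ± 6.02 and C4b at 21.8 ± 4.05. C5ar1 stood at 4.03 ± 2.03 TPM, Cfb at 2.345 ± 2.06 and C3ar1 at 1.75 ± 0.506. C1qb exceeded C1qa, Serping1 exceeded C3, C4b exceeded C5ar1 and C5ar1 exceeded Cfb in all 8 libraries. The neighbours C1qa and C1qc kept that order in 6 of 8 libraries, as did Cfb and C3ar1, and these pairs did not differ beyond their spread. C1qc exceeded Serping1 in 7 of 8 libraries and C3 exceeded C4b in 7 of 8.

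None of the 9 members passed the test between the groups. The edgeR quasi-likelihood test with Benjamini-Hochberg adjustment over all tested genes called 0 of the 9 members and 0% of all 15098 genes at an adjusted p below 0.05. At an unadjusted p below 0.05 it had 0 members and 1.65% of all genes. DESeq2 had 0 members at either threshold, and over all genes 1 at the adjusted and 308 at the unadjusted threshold. The WT and cKO libraries overlapped for all 9 members, while groups did not overlap for 1.52% of tested genes. The mean was lower in cKO for 8 of 9 members and for 51.5% of tested genes. Without WT replicate 2 it was lower for 1 of 9 members and for 49.9% of genes, and the median log2 fold change of the members moved from −0.06 to 0.12. In that fit 0 members passed the adjusted threshold (0.00661% of all genes did) and 0 had an unadjusted p below 0.05 (1.94% of all genes), by edgeR.

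**Figure D1:**
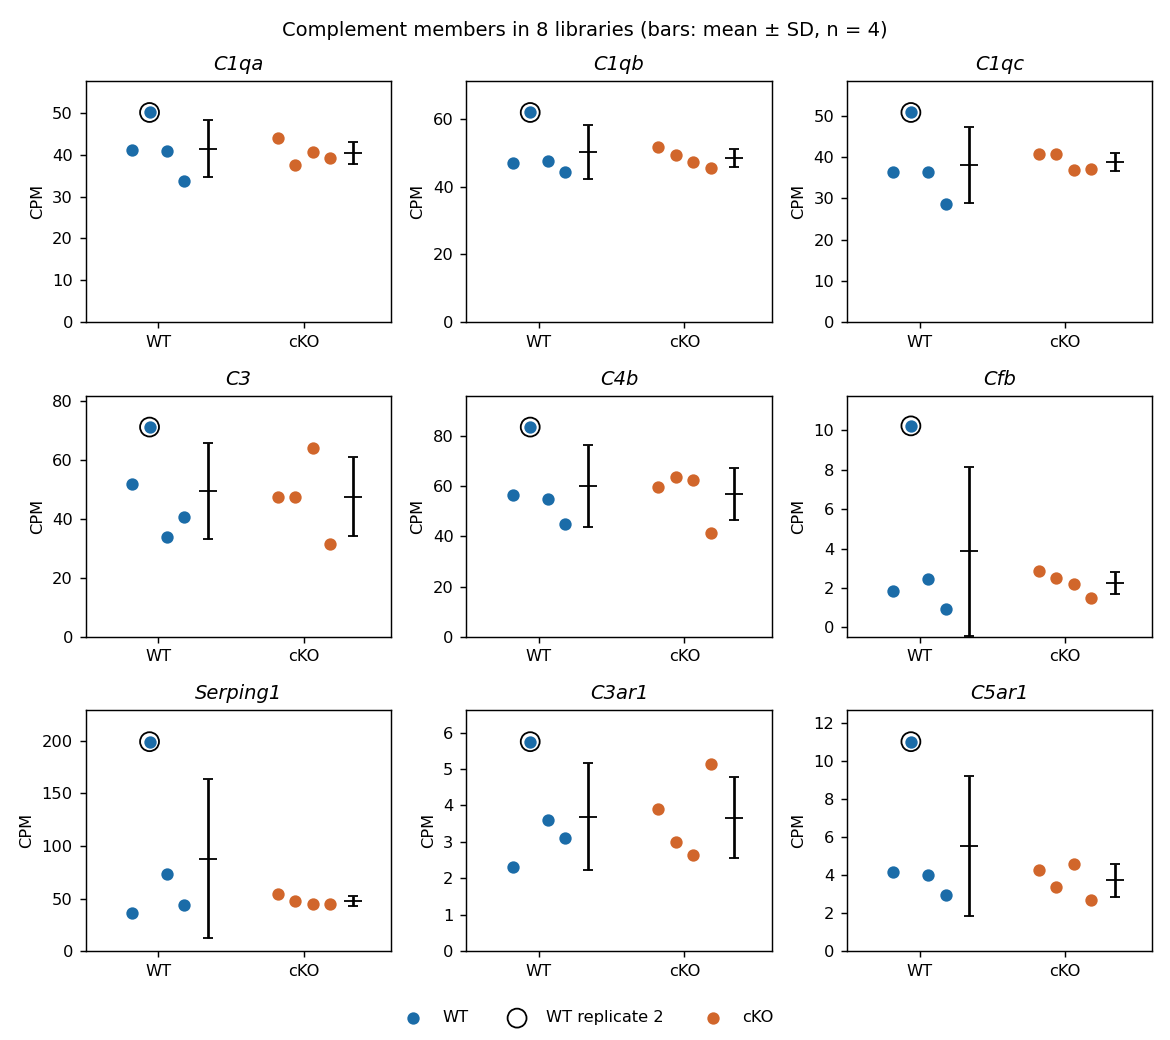
CPM of each member in the 4 WT (blue) and 4 cKO (orange) libraries, with WT replicate 2 ringed; black bars give the mean ± SD (n = 4). The ringed library is the highest for all 9 genes. Relative to the level, the gap is wide for Cfb, Serping1 and C5ar1 and narrow for C3, C3ar1 and C1qa. Without it, all 4 cKO libraries of C1qc (36.8 to 40.8 CPM) lie above the WT libraries (28.6 to 36.5), and WT and cKO overlap for the other 8 genes.

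C1qa encodes the A chain of C1q, the recognition protein of the classical pathway. It stood at 41.3, 50.1, 40.9 and 33.7 CPM in WT replicates 1 to 4 and at 43.9, 37.6, 40.7 and 39.2 CPM in cKO replicates 1 to 4. All 4 cKO libraries lay inside the WT range. On the log2 scale cKO differed from WT by −0.04 ± 0.12 (SE; edgeR adjusted p = 0.930), and the 95% interval spanned −0.30 to 0.23. Without WT replicate 2 it was 0.07 ± 0.086 (SE; edgeR adjusted p = 0.9997).

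C1qb, the B chain, stood at 46.9, 61.9, 47.6 and 44.3 CPM in WT and at 51.8, 49.5, 47.4 and 45.6 CPM in cKO. Only WT replicate 2 lay outside 44.3 to 51.8 CPM. Its fitted log2 difference was −0.05 ± 0.11 (SE; edgeR adjusted p = 0.912), and the 95% interval ran from 0.815 to 1.148 times the WT level. Leaving out WT replicate 2 gave 0.07 ± 0.059 (SE; edgeR adjusted p = 0.9997).

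C1qc, the C chain, stood at 36.5, 50.8, 36.4 and 28.6 CPM in WT and at 40.6, 40.8, 36.8 and 37.0 CPM in cKO. edgeR estimated a log2 difference of 0.03 ± 0.16 (SE; adjusted p = 0.966). Apart from WT replicate 2, each cKO library exceeded each WT library. In these 7 libraries the groups did not overlap for 1 of 9 members and for 3.54% of all tested genes. Without that library edgeR estimated 0.20 ± 0.093 (SE; adjusted p = 0.9997). The exact permutation p was then 0.029, the smallest that 3 libraries against 4 can give. It follows from the lack of overlap and was not adjusted for the 9 members. With all 8 libraries the exact permutation p was 0.629. For the other members the exact permutation p without WT replicate 2 ranged from 0.286 to 0.971.

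The proportions of the chains within a library, chosen for description after the values were seen, varied little. The TPM of C1qb was 1.11 to 1.28 times that of C1qa, and the TPM of C1qc was 0.878 to 1.12 times that of C1qa. Over the 7 libraries without WT replicate 2 the coefficient of variation of TPM was 8.21% for C1qa, 5.14% for C1qb and 10.3% for C1qc. Counting alone gives 4.30%, 3.75% and 4.66% at their lowest counts of 541, 712 and 460, a figure that covers counting error only. Their summed level was 278.8 to 370.35 TPM in all libraries.

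Microglia markers, 10 genes with Olfml3 and P2ry12 among them, summed to 339.0 to 354.7 TPM in the other WT libraries and 350.1 to 365.4 TPM in cKO, and to 318.1 TPM in WT replicate 2. The sum of the C1q chains was 0.822 to 0.994 times that of these markers in the 7 libraries and 1.16 times in WT replicate 2. Genes shared by microglia and macrophages, 12 in all, summed to 484.2 to 608.0 TPM in the 7 libraries and to 760.7 TPM in WT replicate 2. The C1q sum was 0.545 to 0.576 times that sum in the 7 and 0.487 times in WT replicate 2. Perivascular and ganglion macrophage markers, 10 genes including Pf4, F13a1 and Cbr2, were at 41.2 to 73.5 TPM and 159.6 TPM. Genes within the first 2 lists did not move together in WT replicate 2. By CPM it was the lowest library for 7 of the 10 microglia markers and the highest for 1. Over all tested genes it was the lowest for 36.7% and the highest for 37.5%. Olfml3 stood there at 53.6 TPM against 30.2 to 37.4 elsewhere, and P2ry12 at 18.9 against 27.6 to 30.2. It was the highest library for 8 of the 12 shared genes and the lowest for 3. No marker of these 3 lists was at 0 in every library. The part of these cells in the C1q levels was not tested.

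C3, the central component on which all pathways converge, stood at 51.8, 71.0, 33.8 and 40.6 CPM in WT and at 47.4, 47.4, 63.8 and 31.3 CPM in cKO. The lowest library was cKO replicate 4, and cKO replicate 3 was second only to WT replicate 2. The estimate for cKO against WT was −0.06 ± 0.27 on the log2 scale (SE; edgeR adjusted p = 0.959), and 0.18 ± 0.22 (SE; adjusted p = 0.9997) without WT replicate 2. C3 spans 57203967 to 57228136 on chromosome 17 and C4b 34728139 to 34743902 on the same chromosome (GRCm38).

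C4b, the complement component cleaved by C1s, stood at 56.6, 83.5, 55.04 and 44.9 CPM in WT and at 59.5, 63.8, 62.6 and 41.4 CPM in cKO. Again cKO replicate 4 was lowest, and the groups overlapped. By edgeR the log2 difference was −0.08 ± 0.20 (SE; adjusted p = 0.920), and 0.12 ± 0.15 without WT replicate 2 (SE; adjusted p = 0.9997). Of the cKO libraries, replicates 1 to 3 lay above the WT libraries other than replicate 2. Its counts were not whole numbers, and the near-identical copy C4a, at 0.659 to 1.33 CPM, shares reads with it, so the split between the pair is uncertain. The TPM of C3 was 0.868 to 1.35 times that of C4b.

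Cfb encodes factor B, the protease of the alternative pathway (chromosome 17, 34856374 to 34862514, GRCm38). It stood at 1.85, 10.2, 2.44 and 0.934 CPM in WT and at 2.84, 2.49, 2.195 and 1.4996 CPM in cKO, on 15 to 176 estimated counts. WT replicate 2 was 4.66 times the median of the other 7 libraries, and WT replicate 4 was the lowest. edgeR put Cfb at a log2 difference of −0.78 ± 0.67 (SE; adjusted p = 0.887) with all libraries and of 0.37 ± 0.33 (SE; adjusted p = 0.9997) without WT replicate 2. The difference of mean log2 CPM was −0.23 (exact permutation p = 0.8286), and limma-voom gave a log2 fold change of −0.26. GENCODE places Gm20547, a gene on the same strand, over Cfb and its neighbour C2. The estimated counts of Cfb and C2 were whole numbers in all 8 libraries, and a division of reads among these genes was not tested.

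Serping1 encodes the C1 inhibitor, the serpin that inactivates C1r and C1s (chromosome 2, 84765360 to 84775444, GRCm38). It stood at 35.9, 199.0, 73.3 and 44.1 CPM in WT and at 54.4, 47.3, 45.1 and 44.6 CPM in cKO. The cKO libraries sat within 44.6 to 54.4 CPM, and WT libraries held both the lowest and the highest values. Mean CPM was 88.1 ± 75.6 in WT and 47.9 ± 4.51 in cKO (SD, n = 4 each). This was a log2 difference of −0.88 ± 0.49 by edgeR (SE; adjusted p = 0.887), and the interval reached from 0.249 to 1.18 times the WT level. Without WT replicate 2 the WT mean was 51.1 ± 19.6 CPM (SD, n = 3) and the log2 difference −0.09 ± 0.20 (SE; edgeR adjusted p = 0.9997). With all 8 libraries limma-voom gave −0.54.

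**Figure D2:**
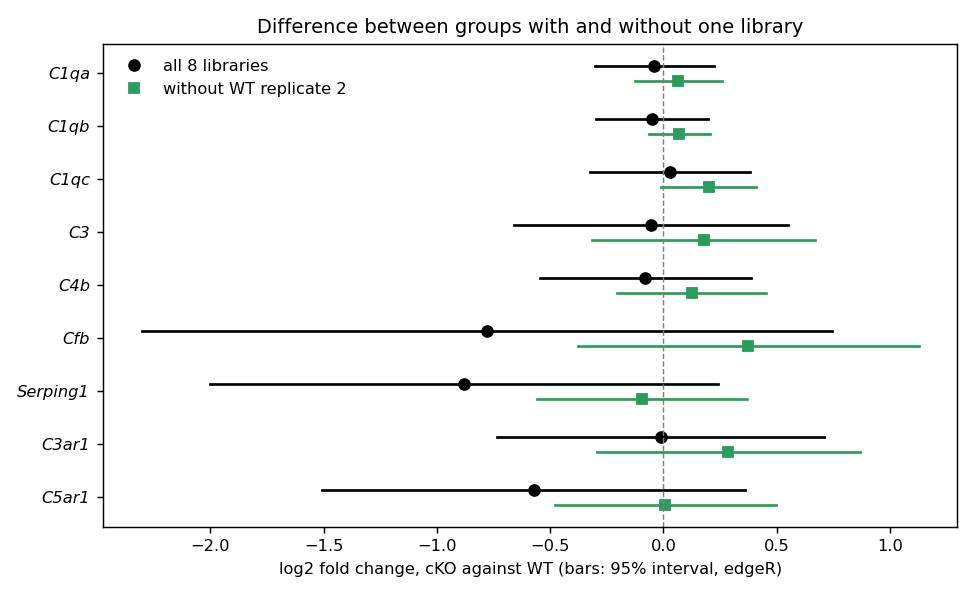
Log2 fold change of each member, cKO against WT, from edgeR with all 8 libraries (black circles) and without WT replicate 2 (green squares); horizontal bars give 95% intervals. Every interval includes 0. The estimates of Cfb, Serping1 and C5ar1 move from −0.78, −0.88 and −0.57 to 0.37, −0.09 and 0.01.

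C1s1 and C1ra encode the proteases that Serping1 inhibits, and their ratio to it was also taken after the values were seen. The TPM of Serping1 was 6.08 to 7.41 times the sum of C1s1 and C1ra in all 8 libraries, WT replicate 2 included at 6.25. Over the same libraries Serping1 ranged from 45.9 to 228.3 TPM and the sum of the proteases from 6.19 to 36.6 TPM. The C1q chains did not share this range: their sum was 51.1 times that of C1s1 and C1ra in WT replicate 1, 10.1 times in WT replicate 2, 21.4 times in WT replicate 3 and 34.5 times in WT replicate 4. In cKO it was 32.8 to 37.7 times.

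**Figure D3:**
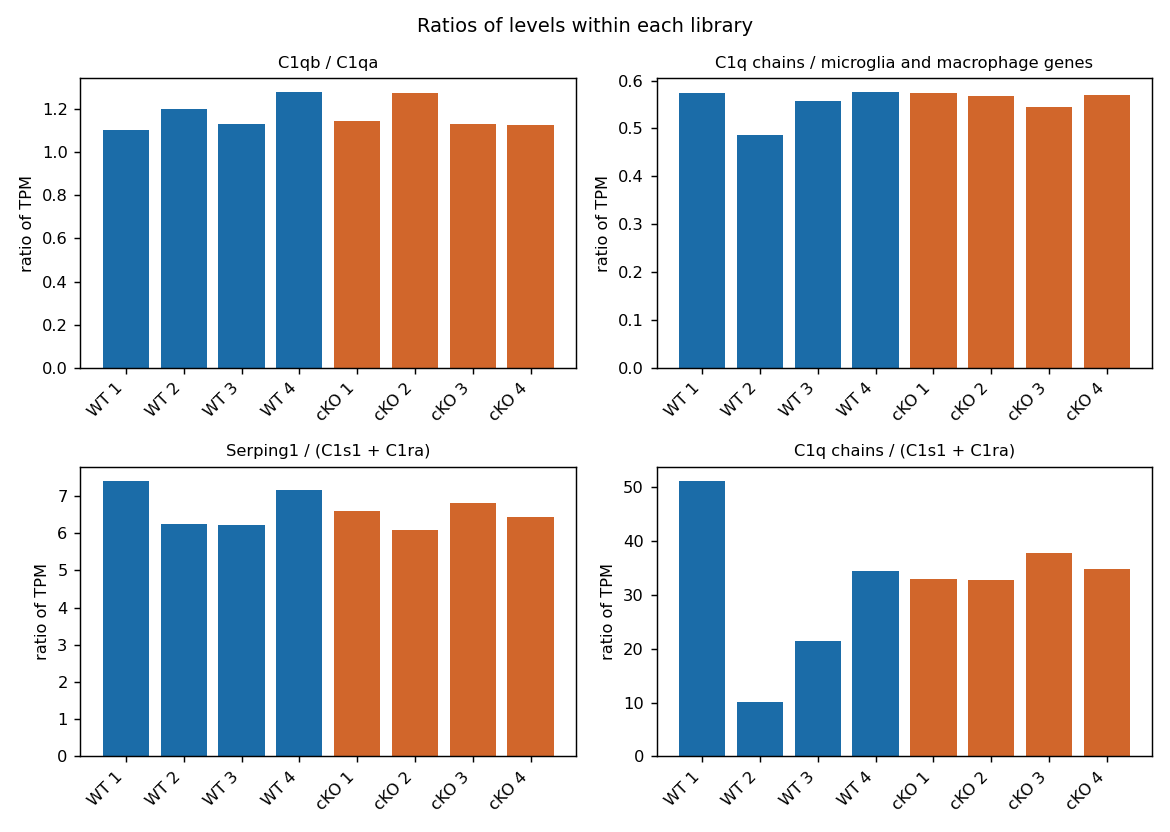
Ratios of TPM within each library, WT in blue and cKO in orange, as bars from 0. C1qb over C1qa (1.11 to 1.28) and Serping1 over the sum of C1s1 and C1ra (6.08 to 7.41) are nearly level, while the C1q sum over the same proteases runs from 10.1 in WT replicate 2 to 51.1 in WT replicate 1.

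Fibroblast markers, 12 genes led by Dcn, Col1a2 and Mfap5, had the same highest and lowest libraries as Serping1. They summed to 2502 TPM in WT replicate 2, 1137 in WT replicate 3, 688.5 to 854.1 in the other libraries except WT replicate 1, and 559.0 in WT replicate 1. Interferon response genes, 15 in all, summed to 1037 TPM in WT replicate 2, 628.9 in WT replicate 3, 372.1 to 464.9 in 5 libraries and 316.6 in WT replicate 1. No gene of either list was at 0 in every library. All 12 and all 15 had lower means in cKO, against 51.5% of all tested genes, with medians of −0.70 and −0.73 on the log2 scale. WT replicate 2 was the highest library for 11 of the 12 and for all 15, against 37.5% of all tested genes. Without it the mean was lower for 9 of the 12 and 12 of the 15 genes, against 49.9% of all genes. The medians of these genes were then −0.12 and −0.10. Their part in the level of Serping1 was not tested.

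C3ar1 encodes the receptor for C3a (chromosome 6, 122847140 to 122856157, GRCm38). It stood at 2.31, 5.75, 3.60 and 3.11 CPM in WT and at 3.91, 3.004, 2.63 and 5.12 CPM in cKO, on 35 to 99 counts. Here cKO replicate 4 was the highest of its group, where C1qb, C3, C4b, Cfb, Serping1 and C5ar1 were lowest. Between groups it differed by −0.01 ± 0.32 on the log2 scale (SE; edgeR adjusted p = 0.992), with an interval wide enough to hold a change from 0.602 to 1.64 times. Leaving out WT replicate 2 gave 0.29 ± 0.26 (SE; edgeR adjusted p = 0.9997).

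C5ar1 encodes the C5a receptor of neutrophils and macrophages (chromosome 7, 16246743 to 16259540, GRCm38). It stood at 4.15, 11.03, 4.02 and 2.99 CPM in WT and at 4.29, 3.39, 4.58 and 2.69 CPM in cKO. WT replicate 2 was 2.74 times the median of the other 7, and the rest of WT and cKO covered nearly the same range. For cKO against WT edgeR gave −0.57 ± 0.41 on the log2 scale (SE; adjusted p = 0.887), and 0.01 ± 0.22 (SE; adjusted p = 0.9997) without WT replicate 2.

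Neutrophil and monocyte markers were abundant, led by S100a8 at 2240 to 10639 TPM, S100a9 and Ngp. The 10 markers summed to 20039 TPM in WT replicate 2, 10730 in cKO replicate 3 and 4150 in cKO replicate 4, which were also the highest, second and lowest libraries for C5ar1. Red blood cell genes summed to 5008 to 14677 TPM in the 7 libraries and 18209 TPM in WT replicate 2. The part of blood cells in the level of C5ar1 was not tested.

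WT replicate 2 held the highest CPM of all 8 libraries for all 9 members, which was so for 37.5% of tested genes. It was the lowest for 0 of 9 members and for 36.7% of tested genes. Its excess over the median of the other 7 differed widely among them. It was 1.23 times for C1qa, 1.31 for C1qb, 1.38 for C1qc, 1.48 for C4b and 1.498 for C3. It was 1.85 times for C3ar1, 2.74 for C5ar1, 4.41 for Serping1 and 4.66 for Cfb. It was at least 2 times in 3 of 9 members and in 11.2% of tested genes.

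**Figure D4:**
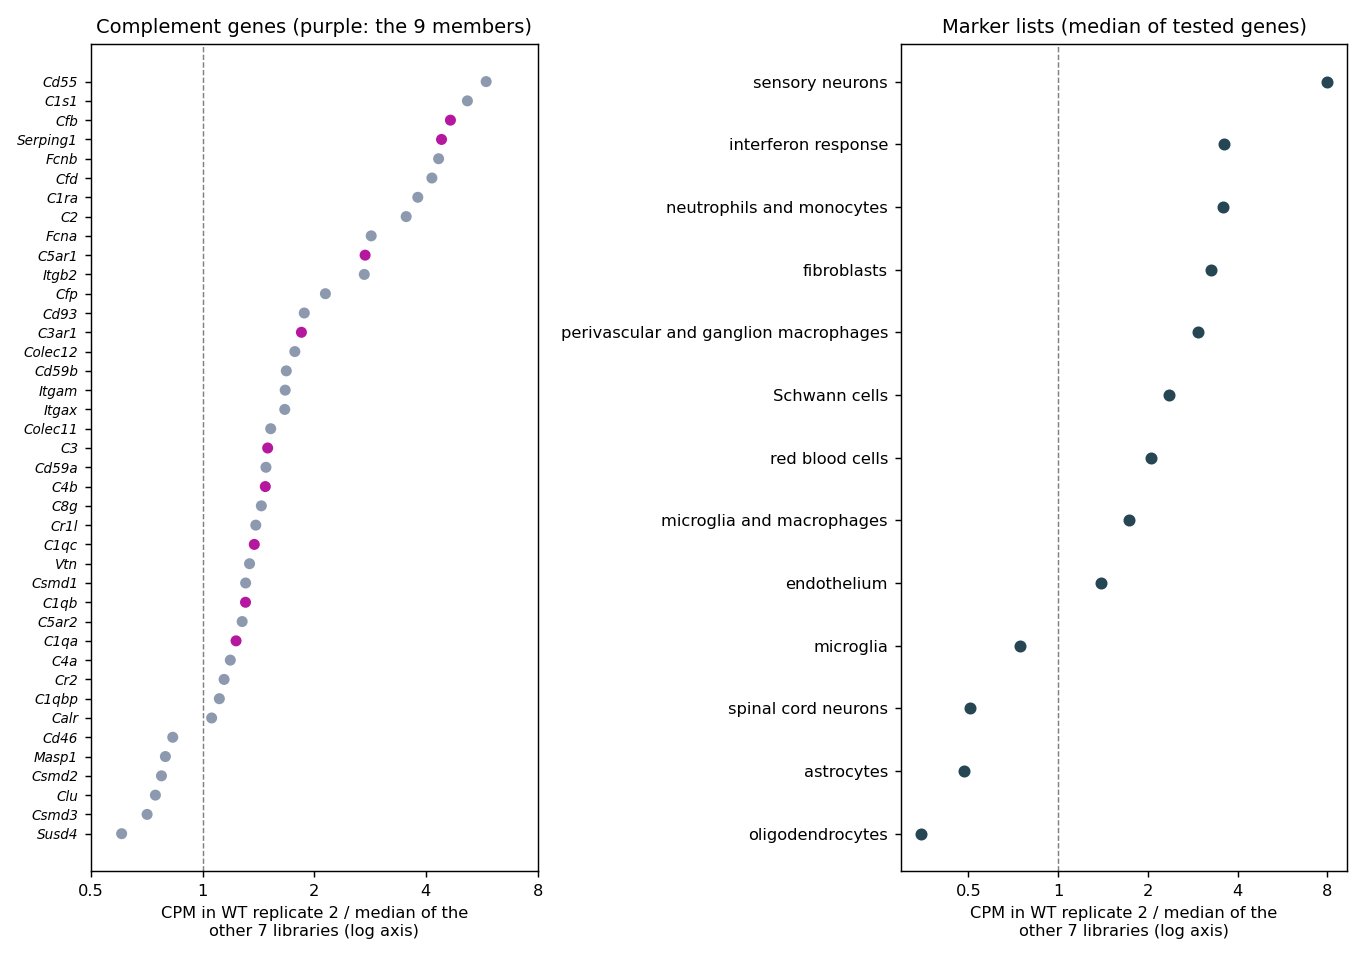
CPM in WT replicate 2 divided by the median of the other 7 libraries, on log axes, for tested complement genes (left, members in purple) and as the median of each marker list (right). C1q chains lie near 1.3, Serping1 and Cfb above 4, and the lists run from oligodendrocytes at 0.346 to sensory neurons at 7.99.

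The other complement genes, 50 listed by role, had 47 entries in the table and 32 tested genes. None passed the threshold in either direction (edgeR, 0% of all genes; also 0 at an unadjusted p below 0.05). At that unadjusted threshold the count was 5 without WT replicate 1 (Colec12, Vtn, Cfp, C1ra and C1s1), 2 without WT replicate 4 and 1 without WT replicate 3. Over all genes the same fits had 820, 614 and 219, against 249 with all libraries. With all libraries the mean of the other complement genes was lower in cKO for 24 and higher for 8. Their median log2 difference was −0.17, where the median of all tested genes was 0.00. Without WT replicate 2 the mean was lower for 16 of 32 and the median was 0.00. WT replicate 2 was the highest library for 20 of the 32 and the lowest for 6, against 37.5% and 36.7% of all tested genes.

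Recognition molecules and early proteases had 9 of 15 tested, 7 with a lower mean in cKO. Masp1, a protease of the lectin pathway, stood at 14.01 ± 3.20 TPM in WT and 16.1 ± 2.97 in cKO. Fcnb, a ficolin of myeloid cells, stood at 15.9 ± 14.2 and 11.01 ± 6.29 TPM, and Colec12, a scavenger collectin, at 11.1 ± 3.26 and 8.105 ± 1.41 TPM (SD, n = 4 each). C1s1 stood at 10.2 ± 9.43 and 5.65 ± 1.04 TPM, C1ra at 6.32 ± 4.48 and 3.87 ± 0.438 TPM, and C2, the partner of C4, at 5.63 ± 3.54 and 3.43 ± 0.231 TPM. WT replicate 2 stood at 5.17, 3.80 and 3.54 times the median of the others for C1s1, C1ra and C2. Without it their WT levels were 5.72 ± 3.29, 4.18 ± 1.58 and 4.04 ± 1.91 TPM (SD, n = 3), still more spread than cKO. Fcnb turned in direction without that library, with a WT level of 8.91 ± 2.49 TPM and a log2 difference of 0.33 in place of −0.62. Masp1 was then at 15.1 ± 2.87 TPM in WT and Colec12 at 10.1 ± 3.10 TPM, on the same side of cKO as before. C1s1, C1ra, C2, Cd55 and Susd4 were named after their values were seen.

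Of the alternative pathway both listed genes were tested. Cfp, properdin, which stabilises the C3-cleaving enzyme, stood at 13.03 ± 4.28 TPM in WT and 10.1 ± 0.747 in cKO. Cfd, the protease that cleaves factor B, stood at 9.0 ± 8.93 and 4.20 ± 1.64 TPM (SD, n = 4 each), and its highest library was WT replicate 1 at 6.39 CPM. Without that library the WT level of Cfd was 5.11 ± 5.38 TPM (SD, n = 3), and its log2 difference was −0.39 in place of −1.16. Without WT replicate 2 the log2 difference was −0.95 for Cfd and −0.11 for Cfp. Of the 7 terminal components only C8g was tested, at 1.67 ± 0.680 and 1.62 ± 0.678 TPM, with a log2 difference of −0.15, and of 0.02 without WT replicate 2. Hc, C6, C7, C8a, C8b and C9, which form the membrane attack complex with it, stayed under the filter, at means of 0.020 to 0.201 TPM. Among these 6, C7 was at 0.13 to 0.61 TPM in WT and at 0 to 0.08 TPM in cKO. Its highest estimated count was 17, too few for the filter.

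Regulators had 12 of 17 tested, 8 with a lower mean in cKO. Clu, clusterin, an inhibitor of the terminal complex, was the highest of all complement genes at 818.2 ± 155.4 TPM in WT and 898.4 ± 61.01 in cKO. Cd59a, which blocks assembly of that complex, stood at 99.6 ± 22.2 and 87.4 ± 14.3 TPM, and Vtn, vitronectin, at 91.6 ± 21.6 and 83.6 ± 8.16 TPM (SD, n = 4 each). The WT levels without WT replicate 2 were 894.75 ± 33.4 TPM for Clu, 90.4 ± 15.3 for Cd59a and 88.1 ± 25.1 for Vtn (SD, n = 3), each nearer to cKO. Cd55, which speeds the decay of the C3-cleaving enzymes, was 5.81 times higher in WT replicate 2 than the median of the others. Susd4, a complement inhibitor, was at its lowest in WT replicate 2, at 0.605 times that median, and Clu at 0.747 times.

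Receptors and binding partners had 8 of 9 tested. Calr, calreticulin, which binds C1q, stood at 419.3 ± 20.8 TPM in WT and 450.4 ± 20.4 in cKO, and C1qbp, a C1q-binding protein of mitochondria, at 128.7 ± 4.20 and 131.4 ± 5.16 TPM. Itgam, the alpha chain of complement receptor CR3, stood at 19.5 ± 4.79 and 18.0 ± 2.72 TPM (SD, n = 4 each). None of the 3 passed the threshold (adjusted p = 0.887 to 0.996, edgeR). With WT replicate 2 left out the log2 difference was 0.11 for Calr and turned to 0.05 for C1qbp and 0.07 for Itgam.

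**Figure D5:**
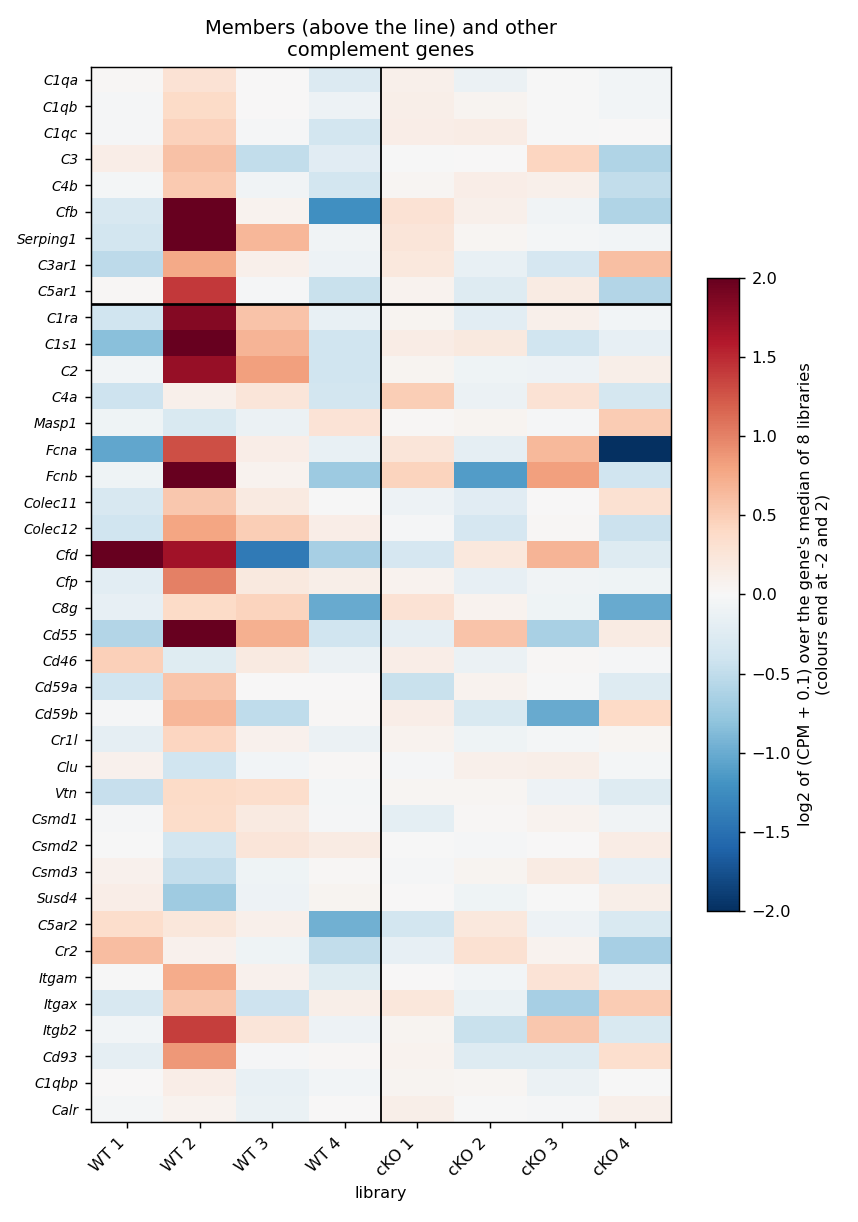
Colours give log2 of (CPM + 0.1) over the gene's median of 8 libraries, red above and blue below, with colours ending at −2 and 2; members stand above the horizontal line and WT libraries left of the vertical one. The WT 2 column is red for Cfb, Serping1, C1s1, C2 and Cd55 and pale for the C1q chains, and no gene shown separates WT from cKO.

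Across the 12387 tested genes with a mean of at least 5 CPM that are not members, likeness to each member was ranked by Pearson correlation of log2 CPM, taking the smaller of the values over 8 libraries and over the 7 without WT replicate 2. The most alike was Cd14, a lipopolysaccharide receptor of myeloid cells, for C1qa (0.973 over 8 libraries and 0.951 over 7). Cox20 (0.957 and 0.939) and Rbbp8 (0.932 and 0.940) came next for C1qa. Sbno2 was the most alike for Serping1 (0.995 and 0.989), followed by Rtp4, an interferon-induced gene, and Islr, a fibroblast marker. Hells was the first for C5ar1 (0.966 and 0.977), followed by Tyrobp, a signalling adaptor of myeloid cells, and Lilrb4a, a myeloid inhibitory receptor. The first genes for the other members, in order, were Rpl17, Sf3b6 and Ppp6c for C1qb and Nup43, Pstpip2 and Zfp992 for C1qc. For C3 they were Ccdc59, Zc3h8 and Zfp873, and for C4b Gm973, Sp3 and Erlin1. For Cfb they were Map3k3, Dpy30 and Eed, and for C3ar1 Cln3, Lipo3 and Tmem205. These are descriptions of 8 libraries, chosen as the highest of many genes.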

How the data were processed

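RNA sequencing libraries of mouse tissue were compared between 4 WT and 4 cKO samples. RSEM 1.3.1, Bowtie2 2.4.5 and HISAT2 2.2.1 are listed in the submitters' processing notes, with the build GRCm38/mm10. The authors deposited estimated counts, TPM and FPKM per gene, 10.3% to 11.0% of counts not whole. Table columns named Ctrl were matched to the WT samples by name and number, and 16 columns of normalized counts and averages were not used. Counts were rounded, filtered with filterByExpr and tested with edgeR 4.0.16 (quasi-likelihood, R 4.3.3) over all genes, after a check on simulated data. DESeq2 1.42.0 and limma 3.58.1 were alternatives, with log2(TPM + 0.1) and log2(TPM + 1). Single values had 2-sided exact permutation tests over 70 or 35 assignments, smallest p 0.029. CPM compared libraries and TPM compared genes. The design text mentions 4 batches without assigning samples, so batch was not modelled. Other complement genes were named by a rule of the highest mean TPM per role. Individual values of 2 listed genes are not reported here, though sums and counts include them. The members and lists were chosen with earlier results of these data known.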

Additional observations from a re-analysis of the deposited data

Results flagged for a closer look

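Of 42 groups of 4 libraries checked (members and named complement genes), 4 had 1 library far from the rest, where chance flags about 1 in 20. Cfb stood at 10.2 CPM in WT replicate 2 against 0.934 to 2.44 in the other WT libraries. C5ar1 stood at 11.03 CPM in WT replicate 2 against 2.99 to 4.15. Fcnb stood at 16.3 CPM in WT replicate 2 against 2.37 to 4.21. Masp1 stood at 31.1 CPM in cKO replicate 4 against 21.4 to 22.6 in the other cKO libraries.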

How the results depend on the processing

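No member and no other tested complement gene passed the adjusted threshold under any setting run. The count over all genes was 0 except for 1 gene with DESeq2 (Lztfl1) and 1 without WT replicate 2 (Capn11), so leaving out 1 library gave 0 to 1. At an unadjusted p below 0.05 edgeR had 249 genes, 820 without WT replicate 1, 614 without WT replicate 4 and 131 to 293 without any other library. Among members this count was 0 except for 1, Serping1, without WT replicate 1. Among the other complement genes it was 0 with all libraries, 5 without WT replicate 1, 2 without WT replicate 4 and 1 without WT replicate 3. For them it was 2 with no filter, where all genes had 359, and 1 (Masp1) with the replicate block. The replicate block called 0 genes, with 213 at an unadjusted p below 0.05. Same-numbered samples had deviation correlations from −0.04 to 0.25, and 2 of 8 correlated best with their own number, so the block was not used beside the results. Whether same-numbered samples share a batch was not tested. Under other settings with all 8 libraries, log2 fold changes near 0 changed sign. C3ar1 was 0.0081 with limma-voom, 0.052 and 0.031 with TPM + 0.1 and TPM + 1, and 0.018 with the replicate block. C1qbp was 0.0011, 0.0296, 0.0294 and 0.00099 in the same order, and 0.0050 with no filter. C1qa was 0.00086 and 0.00082 with the TPM settings. Leaving out 1 library gave log2 fold changes of −0.13 to 0.067 for C1qa, −0.10 to 0.071 for C1qb, −0.086 to 0.20 for C1qc, −0.23 to 0.18 for C3, −0.19 to 0.12 for C4b, −1.10 to 0.37 for Cfb, −0.22 to 0.29 for C3ar1 and −0.78 to 0.0085 for C5ar1. It gave −0.97 to 0.33 for Fcnb, −0.405 to 0.091 for C8g, −0.044 to 0.054 for C1qbp and −0.29 to 0.069 for Itgam. Cfb, C5ar1 and Fcnb, at −0.78, −0.57 and −0.62 with all libraries, changed sign when WT replicate 2 was left out. Serping1 stayed below 0, at −1.14 to −0.094. Differences of mean log2 CPM ran from −0.12 to 0.068 for C1qa, −0.093 to 0.068 for C1qb, −0.070 to 0.20 for C1qc, −0.20 to 0.15 for C3, −0.19 to 0.11 for C4b, −0.685 to 0.41 for Cfb and −0.17 to 0.25 for C3ar1. The cause of these changes was not tested. Counts of 15 to 190 for Cfb, C3ar1 and C5ar1 limit their precision.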
